A study of Bos taurus with 36 samples.

Results

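The genes described here are 9 genes that mark B cells and antibody-secreting cells, MS4A1, CD79A, CD79B, CD22, CR2, BLK, PAX5, POU2AF1 and JCHAIN, chosen as the rows of the count table whose Entrez gene carries one of these bovine RefSeq symbols. All 9 symbols matched a row, of 35092 genes counted in 36 libraries. The RNA came from 10 male cattle fetuses taken at Day 42 of pregnancy, and from whole blood of the recipient heifers that carried them. Every heifer received a Day 7 embryo, either on Day 7 of her cycle (ET_D7, the synchronous transfer) or on Day 9 (ET_D9, the asynchronous transfer, used to stimulate fetal growth). There were 10 maternal blood libraries (5 of each transfer group), 9 heart libraries (none from fetus 7), 9 libraries labelled gonads (none from fetus 2) and 8 liver libraries (none from fetuses 6 and 7). Fetuses are numbered by weight, from fetus 1 (1.253 g) to fetus 10 (1.69 g). The ET_D7 fetuses are numbers 1 to 5, at most 1.37 g, and the ET_D9 fetuses numbers 6 to 10, at least 1.396 g, so fetal weight and transfer group cannot be told apart without removing the group means.

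B cells recognise antigen through the B cell receptor, a membrane immunoglobulin held with the signalling chains CD79A (Entrez 281674) and CD79B (Entrez 509801). BLK (Entrez 532587) is a kinase of the Src family that acts beside this receptor, CD22 (Entrez 514582) is a sialic acid-binding lectin that dampens its signal, and CR2 (Entrez 407126) is a complement receptor that strengthens it. MS4A1 (Entrez 505653) encodes the surface protein CD20. PAX5 (Entrez 538371) is the transcription factor that holds B cell identity, and POU2AF1 (Entrez 528475) is a coactivator that works with the octamer-binding factors POU2F1 and POU2F2. JCHAIN (Entrez 280821) encodes the chain that joins immunoglobulins into polymers and is made mostly by antibody-secreting cells. The liver of a mammalian fetus is a site of blood formation. In RefSeq, 1 non-coding RNA gene overlaps MS4A1 and no gene overlaps the other 8, and the counting options for strand are not given in the sources used here, so MS4A1 is uncertain in that respect.

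Total counts ran from 26602415 to 40812354 for maternal blood, from 20930367 to 35857434 for heart, from 22762065 to 39649051 for gonads and from 18231089 to 34454772 for liver. The blood libraries fell into 5 of high depth (at least 40516154 counts, 2 of ET_D7 and 3 of ET_D9) and 5 of low depth (at most 30393051 counts, 3 of ET_D7 and 2 of ET_D9). Of the organ markers, 5 of 5 heart genes and 5 of 5 liver genes were higher in their own organ than in the other 2, whereas 3 of 7 genes of a gonad and mesonephros list were higher in the gonads (PAX2, WT1 and LHX1), with AMH higher in the heart and NR5A1 higher in the liver. The liver table held 697 genes that jumped between 2 counts or fewer in part of the fetuses and 100 or more in the rest, against 8 such genes in each other tissue. CD79A is among them. Blood and organs were prepared with different kits, and gene length was not used, so levels are compared between samples of a tissue or between organs, never between genes.

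All 9 genes were read deeply in every maternal blood library, with at least 1170 counts per gene and library. The 2 receptor chains had similar spreads. CD79A ran from 111 CPM (counts scaled by TMM to a common library total) in the heifer of fetus 1 to 166 CPM in that of fetus 9, with a median of 135 CPM over 10 libraries. CD79B ran from 107 CPM (fetus 7) through a median of 137 CPM to 189 CPM (fetus 9). Both were highest in the heifer of fetus 9, and the ranges of the transfer groups overlapped for each.

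Among the surface proteins, MS4A1 ran from 710 CPM (fetus 7) through a median of 779 CPM to 1020 CPM (fetus 2), which made it the member with the smallest ratio of highest to lowest library, 1.43-fold. CD22 ran from 338 CPM (fetus 5) through a median of 417 CPM to 628 CPM (fetus 2). The heifer of fetus 2 stood apart from the others for CD22, since the next library was at 456 CPM. CR2 ran from 87.6 CPM (fetus 7) through a median of 148 CPM to 187 CPM (fetus 3). The kinase BLK ran from 93.5 CPM (fetus 8) through a median of 126 CPM to 199 CPM (fetus 7), so the library with the lowest MS4A1, CD79B and CR2 had the highest BLK.

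The transcription regulators had ranges of 1.56-fold (PAX5) and 1.47-fold (POU2AF1) between heifers. PAX5 ran from 157 CPM (fetus 1) through a median of 206 CPM to 245 CPM (fetus 9), and POU2AF1 from 44 CPM (fetus 7) through a median of 57.3 CPM to 64.9 CPM (fetus 9). JCHAIN, the gene of antibody-secreting cells, varied most, from 120 CPM (fetus 2) through a median of 323 CPM to 623 CPM (fetus 9), a 5.2-fold range against 1.43-fold to 2.14-fold for the other 8 genes. The library with the lowest JCHAIN was the one with the highest MS4A1 and CD22. On the log2 scale the SD of JCHAIN lay at the 75.6th percentile of all genes tested in blood, and that of MS4A1 at the 17.9th.

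**Figure D1:**
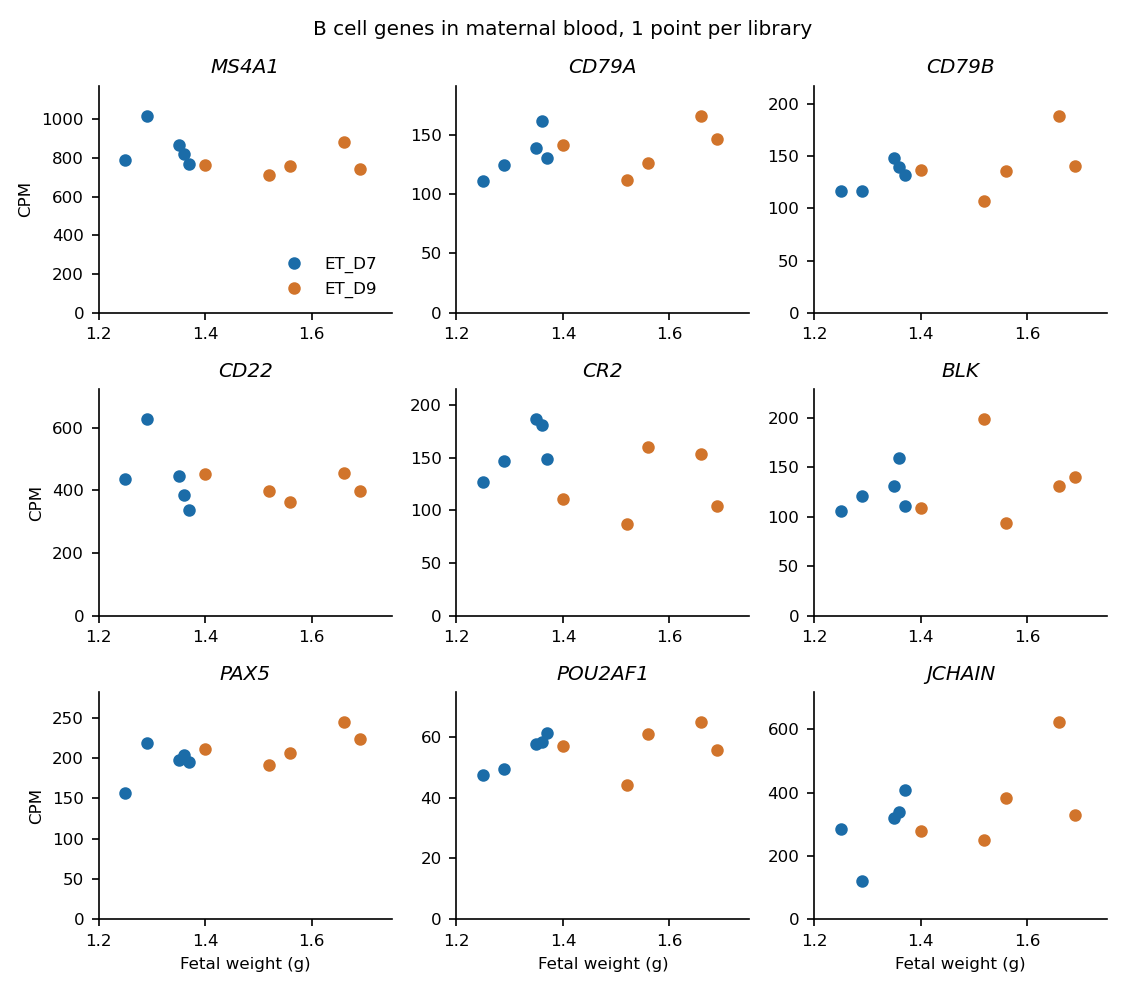
Each panel plots 1 gene in the 10 maternal blood libraries, with fetal weight in g on the x axis and CPM from 0 on the y axis, in blue for ET_D7 and orange for ET_D9. The groups overlap in every panel, and the JCHAIN panel has the widest spread, from 120 to 623 CPM.

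Whether maternal blood expression follows the weight of the fetus is the question the study put to these libraries. No member passed the test along fetal weight in blood (0 of 9 at an adjusted p under 0.05 with edgeR's quasi-likelihood test), where the share of all 16284 genes called was 0%. At an unadjusted p under 0.05 there were 0 of 9 members and 1578 of all genes (9.69%), and DESeq2 called 0 members and 112 genes. The largest slope was that of JCHAIN, 0.20 log2 units per 0.1 g (SE 0.0935, 95% interval −0.0037 to 0.40, adjusted p = 0.525, edgeR). Without the heifer of fetus 9 it was 0.0953, and with the transfer group as a covariate 0.346. PAX5 had a slope of 0.066 (SE 0.0305, unadjusted p = 0.0501, adjusted p = 0.515, edgeR), which became 0.0389 without fetus 1. That of CD79B was 0.076 (SE 0.0409, adjusted p = 0.583, edgeR), and 0.0193 without fetus 9. Slopes were above 0 for 6 members, these 3 with CD79A, BLK and POU2AF1, and below 0 for MS4A1, CD22 and CR2. The median slope over the 9 was 0.047 per 0.1 g, against 0.0018 over all genes tested. The intervals of the members other than JCHAIN lay between −0.21 and 0.19 per 0.1 g. On a spline of weight, the share of genes called was 0.129% (21 genes) and 0 of 9 members were called. CD79A had the smallest p there (unadjusted p = 0.0391, adjusted p = 0.491, edgeR), and it was the 1 member at an unadjusted p under 0.05, against 1591 of all genes (9.77%). DESeq2 called 0 members on the spline as well. The study itself kept genes at p < 0.05 from a negative binomial additive model and states no adjustment, so its limit differs from the one used here. An additive model of that kind called 0 members and 1772 genes at an adjusted p under 0.05. PAX5 had the smallest p of the members there (unadjusted p = 0.0255, adjusted p = 0.134, additive model).

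Between the transfer groups, 0 of 9 members were called in blood (edgeR's quasi-likelihood test), with 0% of all genes called. There were 0 members and 1237 genes (7.6%) at an unadjusted p under 0.05, and DESeq2 called 0 members and 65 genes. CR2 had the smallest p of the members. It averaged 158 ± 25.1 CPM in ET_D7 and 123 ± 32.1 CPM in ET_D9 (SD, n = 5 each), a log2 difference of −0.36 (SE 0.170, 95% interval −0.73 to 0.0085, adjusted p = 0.663, edgeR). JCHAIN averaged 294 ± 107 CPM in ET_D7 and 373 ± 149 CPM in ET_D9 (SD, n = 5 each), a difference of 0.34 (SE 0.306, 95% interval −0.33 to 1.01, adjusted p = 0.815, edgeR) that fell to 0.0693 without fetus 9. MS4A1 averaged 853 ± 99.4 CPM and 772 ± 64.8 CPM (SD, n = 5 each), with a difference of −0.15 (SE 0.0927, adjusted p = 0.739, edgeR) that became −0.0743 without fetus 2. The differences of the other 6 members lay between −0.12 (CD22) and 0.15 (PAX5).

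**Figure D2:**
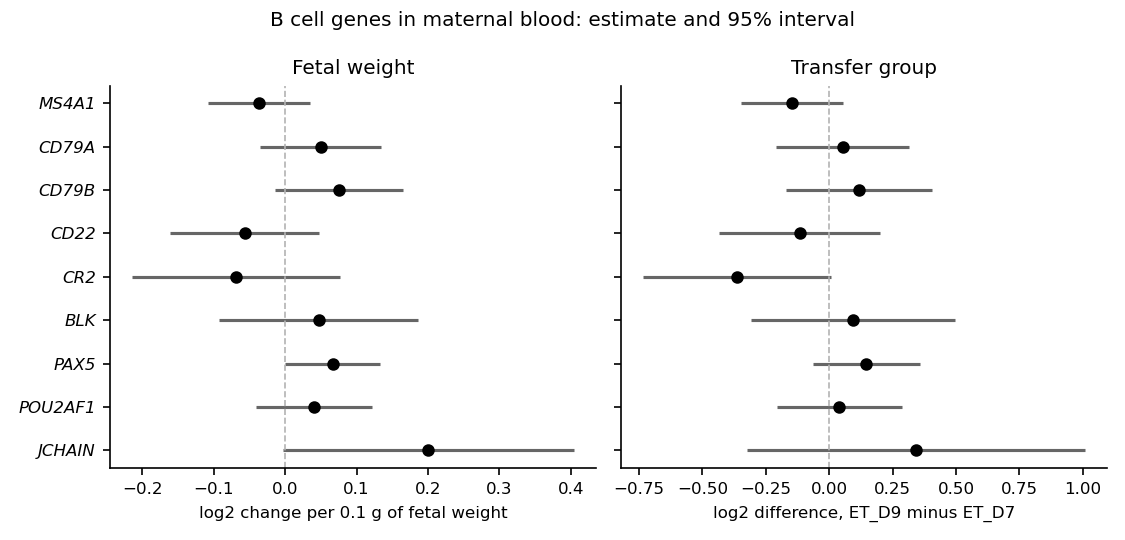
The points give each gene's log2 change per 0.1 g of fetal weight (left) and its log2 difference of ET_D9 from ET_D7 (right) in maternal blood, with 95% intervals as lines. All 18 intervals include 0, and those of JCHAIN are the widest, −0.0037 to 0.40 and −0.33 to 1.01.

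The 9 genes did not vary as a single block between heifers. Over the 10 libraries, which also share their depth and composition, 25 of 36 pairs of members had a positive correlation of log2 CPM, with a median r of 0.222 and a range from −0.66 to 0.863. The 3 pairs above 0.8 were CD79A with CD79B (r = 0.863), CD79B with POU2AF1 (r = 0.858) and MS4A1 with CD22 (r = 0.805). The lowest r was that of CD22 with JCHAIN. BLK stood away from the others, with a median r of −0.112 to the other 8 members and a highest r of 0.105, to PAX5. CD79B came closest to the mean of the other members (r = 0.918) and CD22 was the farthest (r = −0.24).

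**Figure D3:**
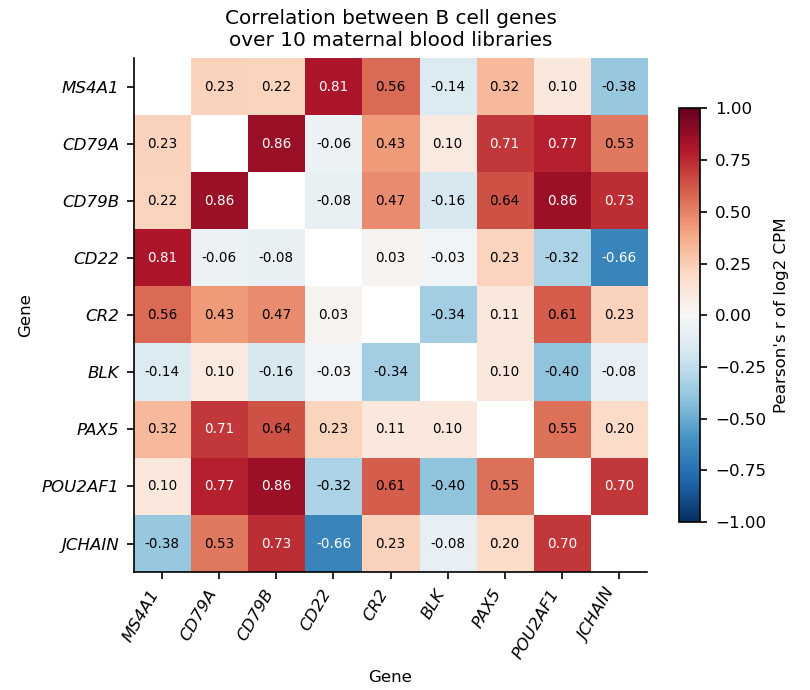
The grid gives Pearson's r of log2 CPM between each pair of the 9 genes over 10 maternal blood libraries, from blue (−1) to red (1), with genes on both axes. CD79A, CD79B, POU2AF1, PAX5, CR2 and JCHAIN have only positive values with each other, from 0.107 (PAX5 with CR2) to 0.863 (CD79A with CD79B). The row of CD22 holds the lowest value of the grid, −0.66, with JCHAIN.

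As a summary, the mean log2 CPM of the 9 genes was taken for each library and is called the B cell level. It is an uneven measure of B cell content. The r of a member with the mean of the others ran from −0.24 (CD22) and −0.204 (BLK) to 0.918 (CD79B), and JCHAIN had the largest log2 SD (0.605). The relations of the level to other genes given below include JCHAIN. In bulk blood, fewer B cells and less RNA per B cell cannot be told apart. This B cell level ran from 7.42 in the heifer of fetus 7 to 7.90 in that of fetus 9, a 1.4-fold range with an SD of 0.146. Together the 9 genes took 2100 to 2910 CPM. The level averaged 7.59 ± 0.127 in ET_D7 and 7.61 ± 0.178 in ET_D9 (SD, n = 5 each), and the groups overlapped. Its correlation with fetal weight was r = 0.385 (Spearman's rho 0.261, jackknife SE 0.40, n = 10), which is smaller than its error. Leaving out each fetus gave r from 0.0438 (without fetus 9) to 0.513, and without the 2 fetuses farthest from the median weight (9 and 10) r was −0.0319. Without fetus 10 alone r was 0.479, so the relation rests on fetus 9. Without JCHAIN r was 0.18. After the transfer group means were taken out r was 0.595, and after those of the depth classes 0.335. The correlation of the level with the total count was 0.364, and the mean level was 7.55 in the low and 7.65 in the high depth class. Without JCHAIN the correlation with the total count was 0.546, with means of 7.44 and 7.58. For the summed CPM of the 9 genes it was 0.535.

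Other B cell genes moved with this level to differing degrees. The mean of 17 surface and survival receptors, such as the BAFF receptor TNFRSF13C and CXCR5, had r = 0.706 with it over the 10 libraries, and that of 16 B cell transcription regulators r = 0.62. The means of 8 plasma cell genes and 6 B lineage progenitor genes had r = 0.557 and 0.537. In contrast, 19 genes of B cell receptor signalling had r = −0.111, with a mean that moved only from 7.58 to 7.72 log2 CPM. Single genes of this list ran from r = −0.551 to 0.509, among them SYK (−0.424), PLCG2 (−0.4), LYN (0.174) and BLNK (0.505). Those of the surface and survival receptors also lay on both sides of 0, from −0.493 to 0.771. Why the lists differ was not tested. T cell markers had r = 0.303 and monocyte markers 0.0431. Erythroid markers, whose mean ran from 0.83 to 5.76 log2 CPM, had r = −0.596. The part of red cell RNA and of depth in these relations was not tested.

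**Figure D4:**
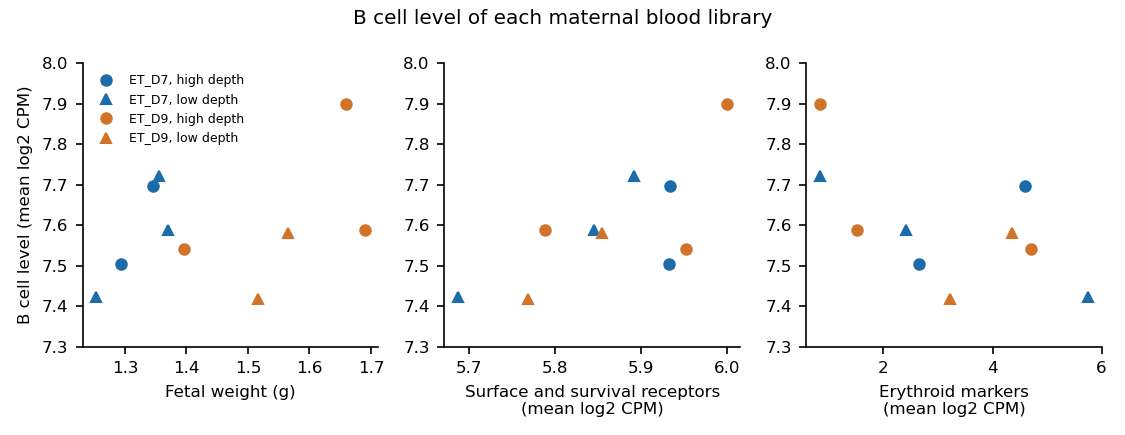
The B cell level (mean log2 CPM of the 9 genes, y axis) of the 10 maternal blood libraries is plotted against fetal weight, the mean of the surface and survival receptors and the mean of the erythroid markers, in blue for ET_D7, orange for ET_D9, circles for high and triangles for low depth. The library of fetus 9 is highest at 7.90, and the level has r = 0.706 with the receptors, 0.385 with weight and −0.596 with the erythroid markers.

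Of 16275 other genes in blood, those most like the B cell level were NDUFB2 (r = 0.931), a subunit of respiratory complex I, and the interferon regulatory factors IRF8 (r = 0.921) and IRF4 (r = 0.917), which act in B cell and plasma cell development. IRF8 ran from 86.5 to 121 CPM and IRF4 from 98.3 to 143 CPM. The next were SLAMF8 (0.915), NACC1 (0.912), PHF19 (0.9), STOML2 (0.89), SRSF9 (0.888), SF3B5 (0.886), TRIM4 (0.885), PPIH (0.884), Entrez 104974542 (0.882), PPP1R18 (0.877), LAP3 (0.875) and MRTO4 (0.872). The least alike were HSPA4L (−0.919), MDC1 (−0.918), DOK6 (−0.915), TCP11L1 (−0.909) and Entrez 101902942 (−0.902). These values describe 10 libraries and were picked as the extremes of all genes. There were 69 genes with r over 0.8.

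Along fetal weight, the other B cell lists in blood held no called gene either (edgeR, 0 of 19, 16, 17, 6 and 8 genes tested of B cell receptor signalling, transcription regulators, surface receptors, progenitor and plasma cell genes). At an unadjusted p under 0.05 they held 2, 3, 1, 1 and 3 genes, against 9.69% of all genes. The plasma cell genes with the smallest p were MZB1, a chaperone of immunoglobulin assembly, with a slope of 0.22 per 0.1 g (SE 0.0834, adjusted p = 0.45, edgeR), and XBP1, the factor of the secretory programme, with 0.084 (SE 0.0322, adjusted p = 0.45, edgeR). The regulators BACH2 and EBF1 had slopes of −0.11 and −0.097 (adjusted p = 0.45 and 0.458, edgeR). In the signalling list PIK3AP1 and CD81 had 0.093 and 0.072 (adjusted p = 0.45 for each, edgeR). The 8 erythroid markers all had negative slopes, led by HBA at −0.88 (SE 0.342, adjusted p = 0.45, edgeR), and 0 of them passed.

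In the fetal organs the 9 genes fell into 3 sets: POU2AF1, which was higher in the heart; CD22, BLK, JCHAIN and CD79A, which were higher in the liver; and MS4A1, CD79B, PAX5 and CR2, which were at or near 0 counts. By edgeR's quasi-likelihood test over all 26 organ libraries, 4 of 9 members were higher in the liver than in each of the others, where 23.1% of all 25095 genes were. The heart had 1 of 9 (11.1% of genes) and the gonads 0 of 9 (14.9% of genes). In either direction, 6 of 9 members were called for heart against liver (58.6% of genes), 4 for heart against gonads (46.6%) and 4 for liver against gonads (64.4%). With the fetus as a block, 4, 4 and 3 members were called.

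POU2AF1 was read at 807 to 1632 counts in every heart library, or 26 CPM (fetus 3) through a median of 49.9 CPM to 68.9 CPM (fetus 4). In the liver it had at most 8 counts, with 5 of 8 libraries at 0, and in the gonads at most 10 counts, with 4 of 9 libraries at 0. The lowest heart library thus lay far above the highest library of either other organ, 0.523 CPM. The log2 fold change was 9.25 over the liver (SE 0.695, 95% interval 7.82 to 10.67, adjusted p = 2.81e-12, edgeR) and 9.57 over the gonads (SE 0.632, 95% interval 8.27 to 10.87, adjusted p = 4.12e-13, edgeR). None of the other 8 members exceeded 6.04 CPM in any heart library, and MS4A1, CD79B and PAX5 were at 0 counts in 7, 5 and 3 of the 9 heart libraries. POU2F1, a partner of this coactivator, was measured in the heart at a median of 20.7 CPM, and POU2F2, the other partner, at 0.38 CPM. Over the 9 heart libraries the genes most like POU2AF1 were ANKRD1 (r = 0.988), a stress-responsive cardiac muscle gene, SEMA5B (r = 0.981), a semaphorin, and CLDN5 (r = 0.98), a tight junction gene of endothelium. Along fetal weight POU2AF1 had a slope of −0.075 in the heart (SE 0.0784, adjusted p = 0.548, edgeR), which ran from −0.112 (without fetus 3) to −0.0299 (without fetus 10) with each fetus left out and was −0.161 with the transfer group as a covariate.

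CD22 was read at 284 to 1071 counts in every liver library, from 18.6 CPM (fetus 10) through a median of 29.2 CPM to 44.3 CPM (fetus 8). The heart had 0.242 to 1.4 CPM and the gonads 0 to 0.54 CPM, so no library of either reached the liver. The liver was higher by 5.58 on the log2 scale over the heart (SE 0.483, adjusted p = 5.69e-11, edgeR) and by 7.22 over the gonads (SE 0.519, adjusted p = 1.04e-12, edgeR). BLK had 92 to 366 counts in the liver, from 4.61 CPM (fetus 9) through a median of 9.76 CPM to 13.7 CPM (fetus 1), against 0.56 to 1.08 CPM in the heart and at most 0.162 CPM in the gonads. Its levels did not overlap between any 2 of the organs. The log2 fold change of BLK was 3.45 for the liver over the heart (SE 0.437, adjusted p = 9.36e-08, edgeR), 7.18 for the liver over the gonads (SE 0.525, adjusted p = 1.45e-12, edgeR) and 3.72 for the heart over the gonads (SE 0.464, adjusted p = 1.15e-07, edgeR).

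JCHAIN was the only member with at least 10 counts in all 26 organ libraries. It ran from 7.11 CPM (fetus 9) through 8.53 to 13.2 CPM (fetus 1) in the liver, from 2.75 through 4.93 to 6.04 CPM in the heart and from 1.52 through 2.89 to 3.79 CPM in the gonads. The liver lay above both other organs in every library, and the heart and gonads overlapped. The liver was higher by 0.997 over the heart (SE 0.201, adjusted p = 0.000108, edgeR) and by 1.67 over the gonads (SE 0.203, adjusted p = 3.58e-08, edgeR), and the heart was higher than the gonads by 0.68 (SE 0.195, adjusted p = 0.00528, edgeR).

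CD79A had 2 levels in the liver. It was read at 127, 331, 229 and 643 counts in the livers of fetuses 1, 2, 3 and 5, or 6.77, 15.4, 13.5 and 20.9 CPM, and at 0, 1, 0 and 1 counts in those of fetuses 4, 8, 9 and 10. The low group holds 1 liver of ET_D7 and all 3 livers of ET_D9. In the same 4 livers, 43 genes had at most 2 counts with at least 100 in each other liver, and its partner chain CD79B had at most 8 counts in any liver. Against 0 to 0.617 CPM in the heart and 0 to 0.648 CPM in the gonads, the fitted log2 fold change of the liver was 4.82 over the heart (SE 1.1, adjusted p = 0.000446, edgeR) and 4.54 over the gonads (SE 1.06, adjusted p = 0.000514, edgeR). Both calls were lost with the fetus as a block, at 3.38 (adjusted p = 0.0645, edgeR) and 3.25 (adjusted p = 0.0591, edgeR). Whether these 0 and 1 counts come from the tissue or from the counting was not tested.

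The other members gave almost no reads in the organs. MS4A1 had 6 counts over the 9 heart libraries, 26 over the 9 gonad libraries and 42 over the 8 liver libraries, of which 22 came from fetus 1 and 14 from fetus 9. CD79B had 14, 42 and 12 counts over those libraries, and CR2 had 20, 51 and 52. PAX5 had 21 counts in the heart and 60 in the liver, 42 of them from fetus 3, whereas every gonad library held 9 to 19 counts, at 0.203 to 0.317 CPM. PAX5 passed no organ comparison (adjusted p = 0.0591 for heart against liver, 0.23 for heart against gonads and 0.468 for liver against gonads, edgeR). MS4A1 was called for heart against liver (adjusted p = 0.0366, edgeR), a call that rests on the 42 liver counts. The call was lost with the fetus as a block (adjusted p = 0.177, edgeR) and without fetus 1, 2, 5 or 9.

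**Figure D5:**
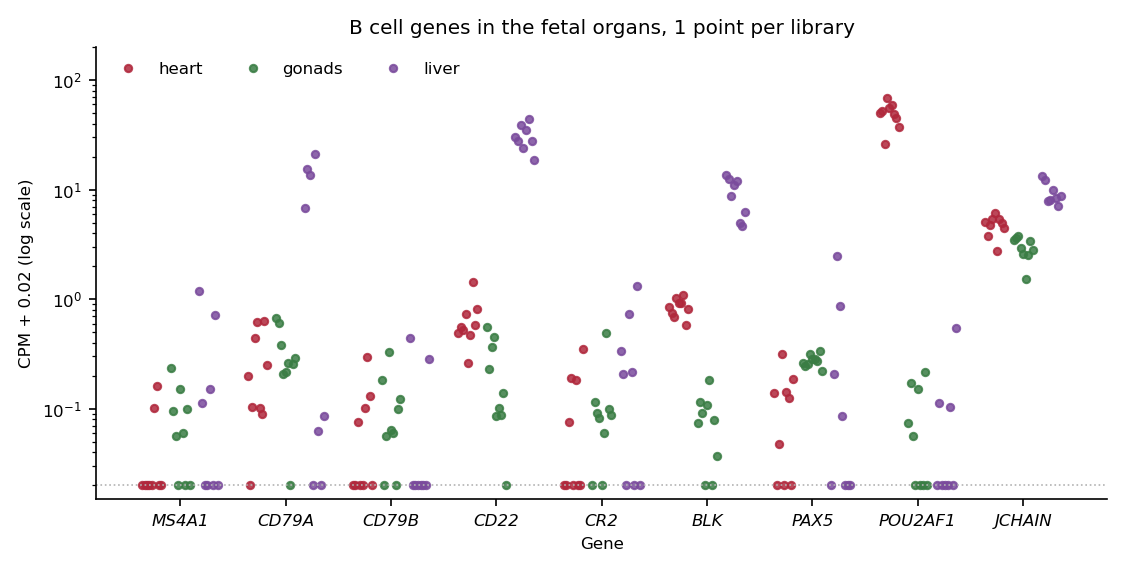
Each point is 1 library of the heart (red), gonads (green) or liver (purple), with the 9 genes on the x axis and CPM plus 0.02 on a log y axis, and points on the dotted line are at 0 counts. POU2AF1 stands high in the heart (26 to 68.9 CPM), CD22, BLK and JCHAIN stand high in the liver, and the liver points of CD79A split into 2 levels.

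Other genes of the B cell lists were measured in the same organs. In the liver, 13 of 19 genes of B cell receptor signalling, 8 of 16 transcription regulators, 7 of 17 surface and survival receptors, 2 of 9 progenitor genes and 1 of 9 plasma cell genes passed against each other organ, beside 23.1% of all genes. The share was above that for the first 3 lists and close to it or below it for the progenitor and plasma cell genes. FCGR2B and CCR7, which are among the genes that passed, were at 0 counts in 2 and 3 of the 8 livers. The counts of these lists were not taken again with the fetus as a block. IKZF1, the lymphoid and haematopoietic factor Ikaros, had 30.3 to 71.3 CPM in the liver and at most 1.14 CPM in the heart, 6.07 higher in the liver on the log2 scale (SE 0.237, adjusted p = 1.6e-18, edgeR). FCRL1, an Fc receptor-like protein of B cells, had 12.2 to 43.5 CPM in the liver and at most 0.601 CPM in the heart (log2 fold change of liver over heart 6.03, SE 0.447, adjusted p = 2.15e-12, edgeR). CD34, a marker of haematopoietic progenitors and endothelium, and IL7R were the 2 progenitor genes called. RAG1, which cuts immunoglobulin genes in B and T cell precursors, was at 0 counts in all 26 libraries, RAG2 and DNTT had at most 13 and 16 counts in a library, and the surrogate light chain gene VPREB3 was at 0 in every liver.

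Markers of other blood cells differed in how they stood in the liver. All 8 erythroid and all 6 platelet markers were higher there than in the heart and the gonads, beside 23.1% of all genes. So were 4 of 6 neutrophil and 3 of 7 monocyte markers. For NK cell and T cell markers it was 1 of 7 and 1 of 13, below the share of all genes. The part of other blood cells in the levels of CD22, BLK and JCHAIN was not tested.

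Within each organ, 4 members had at least 10 counts in at least 4 libraries and could be followed along fetal weight, and 0 of 4 were called in each (edgeR's quasi-likelihood test). The share of all genes called was 6.77% for heart, 0% for gonads and 2.23% for liver. At an unadjusted p under 0.05 the heart had 0 members, the gonads 1 and the liver 2, against 29.1%, 5.62% and 17.2% of all genes. In the liver all 4 slopes were negative. BLK had a slope of −0.35 per 0.1 g (SE 0.0807, 95% interval −0.53 to −0.17, adjusted p = 0.056, edgeR), with 8.65 to 13.7 CPM in the 5 livers of ET_D7 and 4.61 to 6.21 CPM in the 3 livers of ET_D9, which did not overlap. DESeq2 called it (adjusted p = 0.00224), and with the transfer group as a covariate the slope was 0.0357 (adjusted p = 0.975, edgeR). CD79A had a slope of −2.37 (SE 0.698, adjusted p = 0.115, edgeR), which follows its 2 levels, and it was called when fetus 4 was left out (adjusted p = 0.0449, edgeR). JCHAIN had −0.14 (SE 0.0676, adjusted p = 0.314, edgeR) and CD22 −0.081 (SE 0.0805, adjusted p = 0.674, edgeR). In the gonads CD22, with 0 to 28 counts, had a slope of −0.83 (SE 0.26, unadjusted p = 0.00944, adjusted p = 0.849, edgeR). In the heart the slopes of BLK, CD22, JCHAIN and POU2AF1 lay between −0.075 and 0.23, and DESeq2 called 0 members in the heart and the gonads.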

How the data were processed

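RNA was sequenced from fetal heart, gonads and liver (TruSeq stranded mRNA kit) and from maternal blood kept in Tempus tubes (SMARTer stranded kit). The authors trimmed reads with Trimmomatic, mapped them with STAR 2.7.0b to the ARS-UCD1.3 cattle assembly, assigned them to Entrez genes with featureCounts (Subread 2.0.3) and deposited whole-number counts. Symbols were matched by Entrez number to RefSeq (ARS-UCD2.0), for 90.1% of genes. Strand and multi-mapping options are not given in the sources used here.

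From these counts, CPM with TMM scaling and log2 CPM (prior count 2) were computed in edgeR 4.0.16, per tissue for blood and over the 3 organs together. The quasi-likelihood test was fitted to all genes, with Benjamini-Hochberg adjustment and a threshold of 0.05. Weight and transfer group were tested over genes that reached 10 counts in 4 or more libraries, and organs over genes with any count. Slopes are per 0.1 g, and the spline has 3 degrees of freedom. Intervals are 95%. The scripts were tested on simulated counts. Alternatives used RLE scaling, DESeq2 1.42.0, an additive model in mgcv 1.9.3, other filters, covariates and each fetus left out. Organ fold changes of a member are given only where it reached 10 counts in 4 or more libraries of an organ compared, a limit chosen after seeing the data. Organs of the same fetus share its number, so the fetus was fitted as a replicate block in an alternative. The median correlation of their deviations was 0.0386, 0.0234 and 0.00592 for the 3 organ pairs.

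The members and lists were chosen with earlier results of these data known. VPREB1, CSF3R and FPR1 of the lists were unmatched. Named beside the members were, per list, up to 3 genes called or the 2 of smallest p, the 15 genes most and 5 least like the B cell level, and the 3 most like a member in an organ. RAG1, RAG2, DNTT, VPREB3, IL7R, POU2F1, POU2F2, SYK, LYN, PLCG2 and BLNK were also named, some of them after their values were seen, and some genes of the lists are not reported here. Each library is a separate animal or organ, and depth bounds only the counting error.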

Additional observations from a re-analysis of the deposited data

Results flagged for a closer look

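Of 21 sets of libraries of 1 gene and tissue checked for a library far from the others (Dixon's ratio, which by chance picks out about 1 set in 20), 3 had one. CD22 in maternal blood was at 628 CPM in the heifer of fetus 2, with a ratio of 0.518 against a critical value of 0.466. JCHAIN in the gonads was at 1.52 CPM in fetus 7, the lowest of 9 libraries, with a ratio of 0.546 against 0.493. CD79A in the gonads was at 0 CPM in fetus 8, with a ratio of 0.57 against 0.493.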

How the results depend on the processing

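Of the counts of called members, 126 were unchanged within 1.5 times under the alternatives and 2 were higher, both along weight in the liver, where DESeq2 gave 1 member and leaving out each fetus gave 0 to 1. Of the members' log2 changes, 627 kept their direction and call, 23 reversed, 7 were lost and 2 gained, and those that reversed had not passed the test. With the transfer group as a covariate, the weight slopes became 0.018 for MS4A1 and 0.13 for CR2 in blood, −0.00873 for PAX5 and 0.126 for JCHAIN in the gonads, and 0.472 for CD79A and 0.0357 for BLK in the liver. PAX5 for liver against gonads was −0.577 with DESeq2, −1.05 with the fetus as a replicate block and −0.728 to 1.02 with each fetus left out. The replicate block also lost the 2 organ calls of CD79A (3.38 over the heart and 3.25 over the gonads in the liver) and that of MS4A1 for heart against liver, which was also lost without fetus 1, 2, 5 or 9. Leaving out each fetus moved the ET_D9 difference from −0.0298 to 0.131 for CD79A, −0.0147 to 0.197 for CD79B, −0.0981 to 0.192 for BLK, −0.212 to 0.04 for CD22 and −0.023 to 0.11 for POU2AF1. It moved the weight slope from −0.0647 to 0.0389 for BLK and −0.00508 to 0.0371 for JCHAIN in the heart, −0.0329 to 0.0834 for PAX5 in the gonads and −0.122 to 0.0229 for CD22 in the liver. The correlation of the B cell level with weight was −0.0319 without fetuses 9 and 10 and 0.0438 (without fetus 9) to 0.513 with each fetus left out. The cause of these changes was not tested.

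Counts over all genes depended far more on the setting. Along weight in blood they were 0 to 112 with a linear term (112 with DESeq2) and 0 to 1772 with a smooth term (484 with DESeq2, 1772 with the additive model, 4 to 134 with a fetus left out), and between transfer groups 0 to 65. In the heart they were 0 to 3947 and in the liver 0 to 1442. Members below 10 counts in most organ libraries cannot show a difference of moderate size, and a count of 0 there does not show absence.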

Other observations

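Beside POU2AF1, the genes closest to each other measured member within an organ were CAGE1 for BLK (r = 0.965), OR5P5 for CD22 (r = 0.95) and, after a gene without a symbol, TLR2 for JCHAIN (r = 0.991) over the 9 heart libraries. Over the 9 gonad libraries they were GSTO2 for CD79A (r = 0.974), SLCO2A1 for PAX5 (r = 0.972), LOC783399 for CD22 (r = 0.988) and ARFGEF3 for JCHAIN (r = 0.997). Over the 8 liver libraries they were CRYBA4 for BLK (r = 0.998), CPXM1 for CD22 (r = 0.996) and SCFD1 for JCHAIN (r = 0.995), and MAPK8IP2 and AVIL followed the 2 levels of CD79A (r = 0.999 for each). Each is the extreme of all genes over few libraries, and the genes differ between organs for CD22 and JCHAIN.

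Along fetal weight in the liver, genes of the leukocyte lists passed the test in both directions, among them these. CD247, a T cell receptor chain, fell by 2.79 log2 units per 0.1 g (SE 0.381, adjusted p = 0.0106, edgeR), DERL3, a plasma cell gene of the secretory pathway, fell by 0.82 (SE 0.112, adjusted p = 0.0106, edgeR), and MEF2C rose by 0.35 (SE 0.0697, adjusted p = 0.0388, edgeR). Of the monocyte and neutrophil markers, VCAN fell by 1.28 (SE 0.2025, adjusted p = 0.0182, edgeR), CX3CR1 by 0.89 (SE 0.19, adjusted p = 0.047, edgeR) and S100A9 by 0.26 (SE 0.0519, adjusted p = 0.0394, edgeR). The level of CD247 ran from 0 to 39.6 CPM and that of VCAN from 0.588 to 48.3 CPM across the 8 livers. CX3CR1 had at most 39 counts in any of these livers. The part in these slopes of the jumps between low and high counts in the liver table was not tested. In the heart, where 6.77% of all genes were called, the B cell receptor signalling list held 2 genes that fell along weight. The regulators and the surface receptors held 1 each that fell, and the plasma cell genes 1 that rose. Of these, BACH2 fell by 0.25 (SE 0.0475, adjusted p = 0.0395, edgeR) and XBP1 rose by 0.26 (SE 0.0672, adjusted p = 0.0478, edgeR). With the transfer group as a covariate, 0 genes were called in either organ, and in the heart 0 genes were called without fetus 1, 2, 4, 5, 8 or 10. The share of mitochondrially encoded counts in the heart was 45.1% and 57.3% in fetuses 1 and 2. It was 23.5% in fetus 3, and 28.5% and 17.1% in fetuses 9 and 10. Its part in the heart slopes was not tested.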
